A study of Arabidopsis lyrata subsp. lyrata and Arabidopsis thaliana with 7 samples.

Results

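Among the gene models of the version-2 annotation of *Arabidopsis lyrata*, 2,779 carried the mark for a transposable element (TE) and listed no ortholog in *A. thaliana*. They were chosen from the annotation alone, without use of read counts, as gene lines with the mark TE_containing and with the field for the *A. thaliana* ortholog absent or set to NA. They made up 8.69% of the 31,963 protein coding models, 8.47% of all 32,793 models with counts, and 66.2% of the 4,200 TE-containing models. Protein coding here means models from Augustus, Cufflinks or the earlier annotation, and 31,608 of these have an annotated coding region. Augustus had predicted 2,734 of them, Cufflinks 43, and 2 were kept from the earlier annotation. The other protein coding models fell into 1,421 TE-containing models with an ortholog, 7,041 models without TE or ortholog, and 20,722 models without TE but with an ortholog.

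TEs are stretches of DNA that move or copy themselves within a genome, and many encode the proteins that they use to do so, such as transposase or reverse transcriptase. Plants keep most of them silent by DNA methylation, which is directed in part by small RNAs, and TEs gather in the gene-poor chromatin around centromeres. A gene model can carry the TE mark because it is a gene of the TE itself or because a TE sits within a host gene, and the annotation gives neither the TE family nor which of these applies. The study named as TE coding genes those models whose coding region holds a complete TE, to models that lie within a TE, and to models similar in sequence to *A. thaliana* TE genes or to a repeat database, but these were fewer than the models with the mark TE_containing, whose own definition is not given in the sources used here.

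Poly(A) RNA of strain MN47, grown in soil under long days without further treatment, had been sequenced in 2 libraries of entire inflorescences, 1 library of dissected shoot apices and 2 libraries of entire vegetative rosettes. Inflorescences came from the main stem of flowering plants, whereas shoot apices and rosettes were taken at the 5-leaf stage, and the inflorescence reads were shorter, so tissue, stage and read length cannot be told apart. The reads counted in gene models numbered 28,347,972 and 26,047,279 for inflorescences, 10,556,736 for the shoot apex, and 14,440,792 and 13,340,336 for rosettes. Orthologs of 5 flower identity genes summed to 1131 to 1235 CPM, counts scaled to a common library size, in inflorescences, 0.789 CPM in the shoot apex and 0.726 to 6.14 CPM in rosettes. Orthologs of 4 shoot meristem genes summed to 94.5 to 97.5 CPM in inflorescences, 110 CPM in the shoot apex, and 4.84 CPM in rosette 1 against 0 CPM in rosette 2, although the orthologs of WUS and CLV3, which define the stem cell niche, had no more than 3 reads each in the shoot apex.

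Sequences could be shown at the loci of 3 members, as the primer pairs that the study designed for merged or split gene models. They are given because they are the primers that the study listed for these loci. Loci were matched by position, and whether each primer lies within the named member was not checked. For split models the study also placed an amplicon across sequence that version-2 treats as intergenic. No base is in capitals since none marks a seed or site.
AL1G27930 forward: tcttagccggaaagggagga
AL1G27930 reverse: ttggaggtgttgctgctgat
AL1G21600 forward: tctcacgagggtgagagacg
AL1G21600 reverse: cgcattgcatggaaggtgag
AL1G24460 forward: acttcttcgattgggggctg
AL1G24460 reverse: agacggtgcaagtttccgat
AL1G27930 (scaffold 1:6787759-6793712), a merged model of 7 exons, had 35 and 54 reads in inflorescences, 46 in the shoot apex, and 28 and 25 in rosettes. It lay between the listed orthologs of WAKL7 and WAKL4, which are genes of wall-associated kinase-like receptors. AL1G21600 (scaffold 1:4315618-4320230), from the split models, had 14 and 13 reads in inflorescences, 0 in the shoot apex and 0 in both rosettes. AL1G24460 (scaffold 1:5429614-5433492), also from the split models, had 117 and 134 reads in inflorescences, 57 in the shoot apex, and 56 and 46 in rosettes. It lay between the listed orthologs of the cytochrome P450 genes CYP71B28 and CYP71B29. Read counts of AL1G21600 separated inflorescences from the other tissues, whereas AL1G24460 and AL1G27930 had reads in all 5 libraries.

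Reads on the members were sparse. At least 5 reads, the number at which the study called a model expressed, were found for 1,375 members (49.5%, exact 95% interval 47.6 to 51.4%) in inflorescence 1 and 1,479 (53.2%, 51.3 to 55.1%) in inflorescence 2. The shoot apex had 988 such members (35.6%), and rosettes 1 and 2 had 949 (34.1%) and 862 (31.0%). The inflorescence libraries stood above the other 3. They were also the deepest, and after all libraries were thinned to the smallest the shares came to 38.4% and 43.5% in inflorescences, 35.6% in the shoot apex, and 31.9% and 29.4% in rosettes. The order of tissues stayed, with smaller gaps. All protein coding models had the same order. Their thinned shares were 75.8% and 78.2% in inflorescences, 71.1% in the shoot apex, and 68.1% and 64.4% in rosettes. With 2 libraries against 2, an exact two-sided permutation test over libraries cannot go below p = 0.333, so these shares were not tested.

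Over the 5 libraries together, 1,590 members (57.2%, 55.4 to 59.1%) reached 5 reads in at least 1 library. The share was 87.3% for TE-containing models with an ortholog, 74.1% for models without TE or ortholog, and 93.7% for models without TE but with an ortholog. A further 515 members (18.5%) had some reads but fewer than 5 in each library, and 674 (24.3%) had no read, compared with 4.71%, 12.6% and 2.25% without a read in the other classes. Reads in every library at this threshold were found for 750 members (27.0%), against 60.7%, 40.7% and 75.7%. The annotation kept Augustus models that were transcribed or overlapped an earlier model, so that these shares are not independent of how models were chosen.

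**Figure D1:**
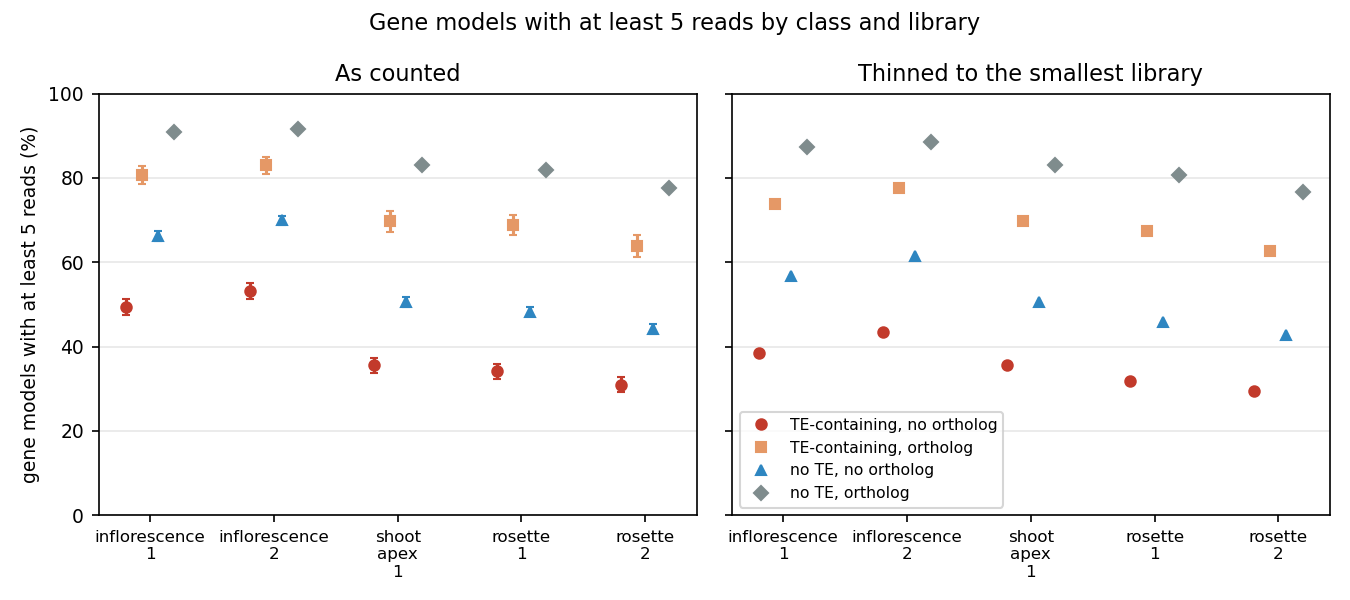
Share of gene models with at least 5 reads (%, vertical axis) in each of the 5 libraries (horizontal axis) for 4 classes of protein coding models, as counted with exact 95% binomial intervals (left) and after thinning to the smallest library (right). TE-containing models without an ortholog lie lowest in every library, between 31.0% and 53.2% as counted.

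Restriction to 1 tissue was mostly restriction to inflorescences. At least 5 reads in both inflorescence libraries and none elsewhere were found for 179 members (6.44%), against 6.33% of TE-containing models with an ortholog, 8.86% of models without TE or ortholog and 4.02% of models without TE but with an ortholog. The same pattern with at least 20 reads held for 61 members (2.20%), against 3.66%, 4.22% and 2.88% in the same order of classes. At 20 reads the members thus had the lowest share. The median member had 4 and 6 reads in inflorescences, so this threshold also selects by level, and the classes were not matched for it. For rosettes, 2 members had at least 5 reads in both libraries and none in the other tissues: AL1G51350, with 14 and 10 reads, and AL1G62160, with 10 and 10 reads. No member had at least 5 reads in the shoot apex and none in the other tissues, and the highest there was AL5G15790 with 4 reads. A floor of 3 reads corresponded to 0.0944 and 0.0986 CPM in inflorescences, 0.215 CPM in the shoot apex, and 0.259 and 0.311 CPM in rosettes, so that restriction to the shallower tissues was harder to detect.

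Levels were compared between classes as CPM per kilobase of exon. The median member stood at 0.106 in inflorescences, 0.0166 in the shoot apex and 0.0131 in rosettes. TE-containing models with an ortholog had medians of 2.94, 2.26 and 2.23, models without TE or ortholog 0.867, 0.340 and 0.270, and models without TE but with an ortholog 9.18, 8.13 and 8.37 in the same tissues. A level of at least 10 was reached by 193 members (6.94%) in inflorescences, 196 (7.05%) in the shoot apex and 207 (7.45%) in rosettes. The members thus held a small group with substantial counts beside a majority near 0.

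Members took 1.59% and 2.21% of the counted reads in inflorescences, 3.65% in the shoot apex, and 1.47% and 2.00% in rosettes. These shares rested on few models. The 10 members with most reads in a library held 17.6% and 28.8% of the members' reads in inflorescences, 44.1% in the shoot apex, and 28.4% and 36.4% in rosettes, while the median member had 4 and 6 reads, 1 read, and 0 and 0 reads. Without 10 members at the end of scaffold 3 that are described below, the shares were 1.44% and 1.60% in inflorescences, 2.10% in the shoot apex, and 1.26% and 1.48% in rosettes.

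The members were long and rich in exons. Their median length from first to last base was 2,817 b (quartiles 1,594.5 and 4,972.5 b), against 3,115 b for TE-containing models with an ortholog, 1,510 b for models without TE or ortholog and 2,165 b for models without TE but with an ortholog. More than 1 exon was annotated for 91.8% of members, with a median of 5 exons in the transcript with most exons, compared with medians of 6, 3 and 4 exons in the other classes. The coding region, present in 2,736 members, had a median of 1,189.5 b, against 1,509, 591 and 1,104 b. An intron of at least 1 kb occurred in 691 members (24.9%), against 20.2%, 8.62% and 4.68%, and 367 members (13.2%) had more than 1 transcript, against 9.08%, 6.18% and 6.34%. In length and in maximum exon number the members were nearer to TE-containing models with an ortholog than to other models without an ortholog. In the first transcript, members had a median of 4 exons, TE-containing models with an ortholog 6 and models without TE or ortholog 3. By that measure the members were nearer to models without TE or ortholog.

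The extremes of structure ranged widely in reads. AL3G45870 (scaffold 3:20116317-20141511), the longest member with 25,195 b and 32 exons, had 3 and 1 reads in inflorescences, 3 in the shoot apex, and 0 and 1 in rosettes. AL2G18760 (scaffold 2:7488740-7512344), which had the most exons with 77, had 262 and 200 reads in inflorescences, 115 in the shoot apex, and 133 and 74 in rosettes. AL2G19040, with 48 exons over 18,564 b, had 562 and 385 reads, 160 reads, and 113 and 51 reads in the same order of tissues. AL2G18760 and AL2G19040 both lay on scaffold 2 and had reads in all libraries, and per kilobase of exon they averaged 0.739 and 1.18 CPM over the tissues, against 0.0155 CPM for AL3G45870.

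The number of exons was not accompanied by a higher share of members with reads. At least 5 reads in 1 or more libraries were found for 59.0% of members with 1 exon (52.3 to 65.4%), 57.8% with 2 to 3 exons, 56.3% with 4 to 6 exons, 61.1% with 7 to 10 exons and 50.9% with more than 10 exons (45.3 to 56.5%). In models without TE but with an ortholog the share was 87.2% with 1 exon and 99.0% with more than 10 exons. Models without TE or ortholog had 69.3% and 85.4% at these ends, and TE-containing models with an ortholog 84.8% and 93.2%. By coding length, the members' shares ran between 49.2% in the class with the longest coding regions and 62.7% in that with the shortest. The 43 members without a coding region, which Cufflinks had assembled from the reads themselves, stood apart with 36 (83.7%) at 5 reads or more.

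**Figure D2:**
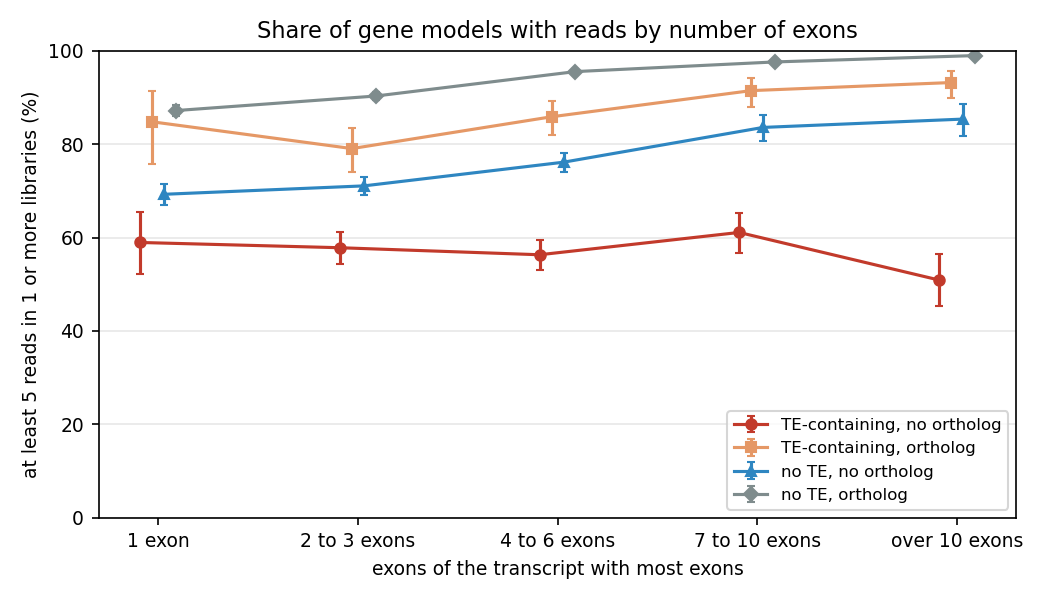
Share of gene models that reached 5 reads in some library (%, vertical axis) by the number of exons of the transcript with most exons (horizontal axis), with exact 95% binomial intervals, for 4 classes of protein coding models. The share for TE-containing models without an ortholog lies between 50.9% and 61.1% at every exon number, whereas it reaches 93.2%, 85.4% and 99.0% above 10 exons in the other classes.

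Members were found on all 8 chromosome-scale scaffolds. Counts ran from 294 on scaffold 2 to 435 on scaffold 1, and the share of coding models that were members from 7.26% on scaffold 6 to 10.8% on scaffold 8. Scaffold 9, which is far shorter, held 52 members among 193 coding models (26.9%). In windows of 500 kb, the median was 6 members and the maximum 25, at scaffold 2:1000001-1500000, where 25 of 91 coding models were members and 19 of these had at least 5 reads. No member was found in 33 complete windows, and 29 of these held no coding model at all. The remaining 4, such as the window with 141 coding models at scaffold 1:500001-1000000, were gene-rich.

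Members were unevenly spread along the scaffolds. In 44 of 392 windows at least 25% of the coding models were members, a threshold chosen after the data were seen, and these windows held 547 of the 2,716 members on scaffolds 1 to 8 (20.1%) but 5.62% of the coding models. The widest such stretches covered 3 adjacent windows, among them scaffold 8:10000001-11500000 with 41 members of 108 coding models (38.0%) and scaffold 1:17000001-18500000 with 40 of 128 (31.3%). Within member-rich windows 245 of 547 members (44.8%) had at least 5 reads in a library, against 1,314 of 2,169 (60.6%) elsewhere. Across the 384 complete windows, the number of members correlated with the number of models without TE but with an ortholog at Pearson's r = -0.28 (Spearman's rho = -0.26), and with the number of models without TE or ortholog at r = 0.27 (rho = 0.24). The 384 windows include the 29 without any coding model, which count 0 in every class, and the correlations without them were not computed. Whether members and models without TE or ortholog go together in windows that hold genes is therefore not shown. Windows on 1 scaffold are not independent, so these correlations are a description without a test.

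**Figure D3:**
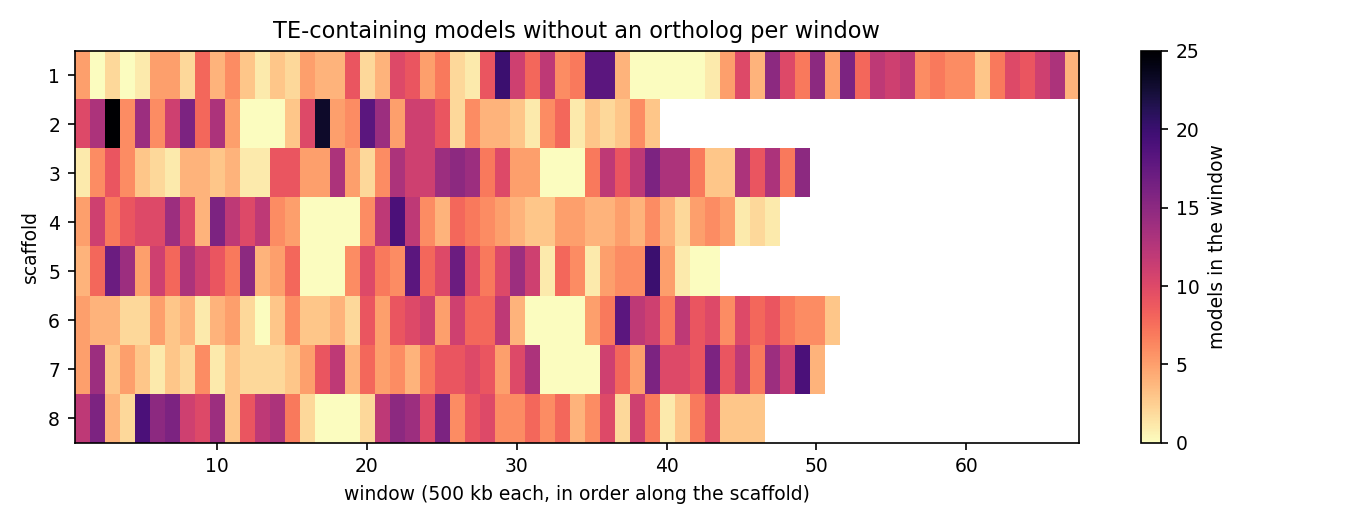
Number of TE-containing models without an ortholog (colour, 0 to 25) in consecutive 500-kb windows (horizontal axis) along scaffolds 1 to 8 (vertical axis). The darkest window, with 25 members, is the third of scaffold 2, and each scaffold has a stretch of adjacent windows without members.

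Runs of members without another coding model between them were common. At least 3 in a row occurred 145 times and took in 538 members (19.4%), against 6.54% of TE-containing models with an ortholog and 28.8% of models without TE or ortholog. Of the neighbours of a member, 25.1% were members, 27.8% were models without TE or ortholog and 40.5% models without TE but with an ortholog. Within runs 256 of 538 members (47.6%, 43.3 to 51.9%) had at least 5 reads in a library, against 1,334 of 2,241 (59.5%, 57.5 to 61.6%) outside them. In 13 runs no member had a read, and in 35 no member reached 5 reads.

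The longest run held 11 members, from AL9U11260 to AL9U11360 at scaffold 9:1263462-1339097, of which 7 had no read and 2 reached 5 reads. Its member with most reads, AL9U11340, had 2 and 15 reads in inflorescences, 1 in the shoot apex, and 0 and 0 in rosettes. The run of 8 from AL1G49320 to AL1G49390 at scaffold 1:17593361-17630815 had reads on AL1G49390 alone, with 29 and 30 reads in inflorescences and 0 in the other 3 libraries. In the run of 8 from AL6G39830 to AL6G39900 at scaffold 6:14034308-14122137, 5 members had no read, and AL6G39880 had 4 and 8 reads in inflorescences, 4 in the shoot apex, and 2 and 3 in rosettes. In all 3 runs inflorescence 2 held the most reads of the 5 libraries. AL6G39820 (AT5G28690), the orthologous model just before the last run, had 10,120 and 8,222 reads in inflorescences and 0 in the other 3 libraries.

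To ask how members differed between tissues, edgeR's quasi-likelihood test was run on all models in 1 fit, and 1,218 members (43.8%) passed the filter on low counts. A call required an adjusted p under 0.05. A member passes the filter through the tissue in which it is high, so that the tested members are not a sample of all of them. Of 43 fold changes named below for a call, 2 kept it without inflorescence 1 and 3 without inflorescence 2, while all 43 kept it without rosette 1 or rosette 2, and the fold change moved by no more than 1.5 times for 36 of the 41 calls lost without inflorescence 1 and 33 of the 40 lost without inflorescence 2. Without an inflorescence library the spread is estimated from the rosettes alone, and without a rosette library from the inflorescences alone. The inflorescences differed less from each other, with a median absolute log2 ratio of 0.195 against 0.340 over tested members. Keeping a call without a rosette library is therefore a weak check. In bulk samples, more transcript per cell and a larger share of the cells that contain it cannot be told apart.

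Between inflorescences and rosettes, 162 of the 1,218 tested members (13.3%) were higher and 144 (11.8%) were lower in inflorescences. Among all tested models 17.6% were higher and 16.7% lower, and both shares lay above those of the members. The filter passed 43.8% of members against 79.7% of protein coding models. Calls are harder to reach at low counts, and shares of calls were not matched for read level in any comparison. The median log2 fold change was 0.19 over tested members and 0.09 over all tested models. Scaled by library totals instead of TMM factors, the median of all models moved by 0.59 and the members split into 372 higher (78.8% of the calls) and 100 lower, against 52.9% higher in the main test. With 1 library left out, 7 higher and 4 lower were called without inflorescence 1 and 10 and 6 without inflorescence 2, while 275 and 229 were called without rosette 1 and 251 and 191 without rosette 2.

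The members higher in inflorescences were mostly near 0 elsewhere, with a median over the 162 of 3.83 CPM in inflorescences, 0.144 CPM in the shoot apex and 0.0519 CPM in rosettes. AL1G36590 (scaffold 1:10441721-10443800), a model of 5 exons, had 650 and 945 reads in inflorescences, 1 in the shoot apex and 0 in both rosettes. It was at least 90.3-fold higher in inflorescences than the floor of 3 reads per rosette library (adjusted p = 0.00439 by edgeR's quasi-likelihood test). The orthologous models on either side were restricted in the same way, with 1,481 and 1,771 reads for AL1G36580 (AT1G23590) and 1,562 and 1,834 for AL1G36630 (AT1G23640) in inflorescences and 0 in the other 3 libraries.

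AL2G12620 (scaffold 2:1377994-1380325), with 3 exons, had 441 and 480 reads in inflorescences and 0 in the shoot apex and rosettes. This was at least 52.0-fold above the rosette floor (adjusted p = 0.00348 by edgeR's quasi-likelihood test). It began in the window with most members and ended 1,251 b before AL2G12630, the listed ortholog of ACOS5, an acyl-CoA synthetase of the pollen wall polymer sporopollenin. AL2G12630 had 3,459 and 3,341 reads in inflorescences and 0 in the other 3 libraries. The member and its neighbour thus had reads in the same 2 libraries.

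AL6G35180 (scaffold 6:10617983-10619627) had the most reads among the 10 members with the largest increase, with 2,914 and 2,080 in inflorescences, 1 in the shoot apex, and 0 and 1 in rosettes. Pooled over libraries its ratio to rosettes was 1703 (95% counting interval 305 to 67,273, adjusted p = 0.00245 by edgeR's quasi-likelihood test). Its neighbours did not share this pattern, since AL6G35170 (AT5G24350) had reads in every library and AL6G35190 (AT5G24355) had 2 and 0 reads in inflorescences.

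Another 7 of these 10 members had no read in either rosette. AL5G22320 (610 and 558 reads in inflorescences, at least 65.8-fold), AL6G35810 (667 and 469, at least 63.8-fold) and AL4G14200 (542 and 435, at least 55.0-fold) had no read in the shoot apex either. The same held for AL5G15400 (467 and 389, at least 48.2-fold), AL5G27550 (415 and 315, at least 41.0-fold) and AL7G30800 (350 and 229, at least 32.5-fold). AL5G16430 had 261 and 554 reads in inflorescences and 1 in the shoot apex, at least 46.3-fold above the rosette floor (28.8-fold without inflorescence 2). Their adjusted p lay between 0.00296 and 0.0118 by edgeR's quasi-likelihood test. AL5G15400 lay 1,494 b before AL5G15410, the listed ortholog of the seed regulator FUS3, which had 4 and 3 reads in inflorescences, 0 in the shoot apex, and 2 and 0 in rosettes. The inflorescence markers moved with all of these members, with orthologs of 3 tapetum and pollen genes at 608 to 842 CPM in inflorescences against 0.359 CPM in the shoot apex and 0.208 to 2.59 CPM in rosettes, and which cells hold the members' reads was not tested.

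The members lower in inflorescences had medians over the 144 of 1.39 CPM in inflorescences, 3.84 CPM in the shoot apex and 11.2 CPM in rosettes. AL8G14790 (scaffold 8:3130603-3135058) had 3 and 3 reads in inflorescences, 11 in the shoot apex, and 74 and 108 in rosettes. Its log2 fold change was -6.42 (SE 0.52, adjusted p = 0.00335 by edgeR's quasi-likelihood test). The next orthologous model before it, AL8G14780 (AT5G44580), also had more reads in rosettes, with 195 and 265 in inflorescences against 1,190 and 738 in rosettes.

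AL2G21840 (scaffold 2:10196816-10200084), an 8-exon model, had 31 and 24 reads in inflorescences, 5 in the shoot apex, and 187 and 500 in rosettes. It was lower in inflorescences (log2 fold change -5.26, SE 0.72, adjusted p = 0.010 by edgeR's quasi-likelihood test) and lower in the shoot apex (log2 fold change -6.54, SE 1.14, adjusted p = 0.0473). Both values moved with the rosettes, to -4.19 and -5.47 without rosette 2 and to -5.87 and -7.15 without rosette 1, with the calls kept. The orthologous model AL2G21850 (RK2, a receptor kinase gene) followed 641 b after it, with 77 and 62 reads in inflorescences, 9 in the shoot apex, and 213 and 375 in rosettes. Member and neighbour had the same order of tissues.

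For several of the other lowered members the rosettes differed widely from each other. AL6G41340 had 1 and 0 reads in inflorescences, 1 in the shoot apex, and 14 and 158 in rosettes (adjusted p = 0.0351 by edgeR's quasi-likelihood test). AL7G29620 had 2 and 0 reads, 2 reads, and 51 and 133 reads in the same order, and AL4G14060 had 2 and 4, 1, and 15 and 110. AL6G35970 had 4 and 19 reads in inflorescences, 92 in the shoot apex, and 222 and 791 in rosettes. AL6G34130, AL8G11790 and AL8G34990 also had rosette 2 above rosette 1, while AL1G44650 had 3 and 3 reads in inflorescences, 355 in the shoot apex, and 167 and 30 in rosettes. Without rosette 2 the log2 fold change was -3.67 for AL4G14060 (-5.94 with all libraries), -5.67 for AL6G35970 (-7.06), -4.93 for AL6G34130 (-6.10), -3.07 for AL8G11790 (-5.09) and -4.03 for AL8G34990 (-4.99), and without rosette 1 it was -4.93 for AL1G44650 (-6.42). Without inflorescence 1 it was -6.32 for AL6G35970, and without inflorescence 2 it was -8.57 for AL6G35970 and -5.64 for AL8G34990. The inflorescence and rosette libraries did not overlap for any of these, as the rule for naming required. Over the 1,218 tested members the inflorescences differed from each other by more than 2-fold for 76 (6.24%) and the rosettes for 171 (14.04%), against 3.13% and 14.8% of all tested coding models.

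**Figure D4:**
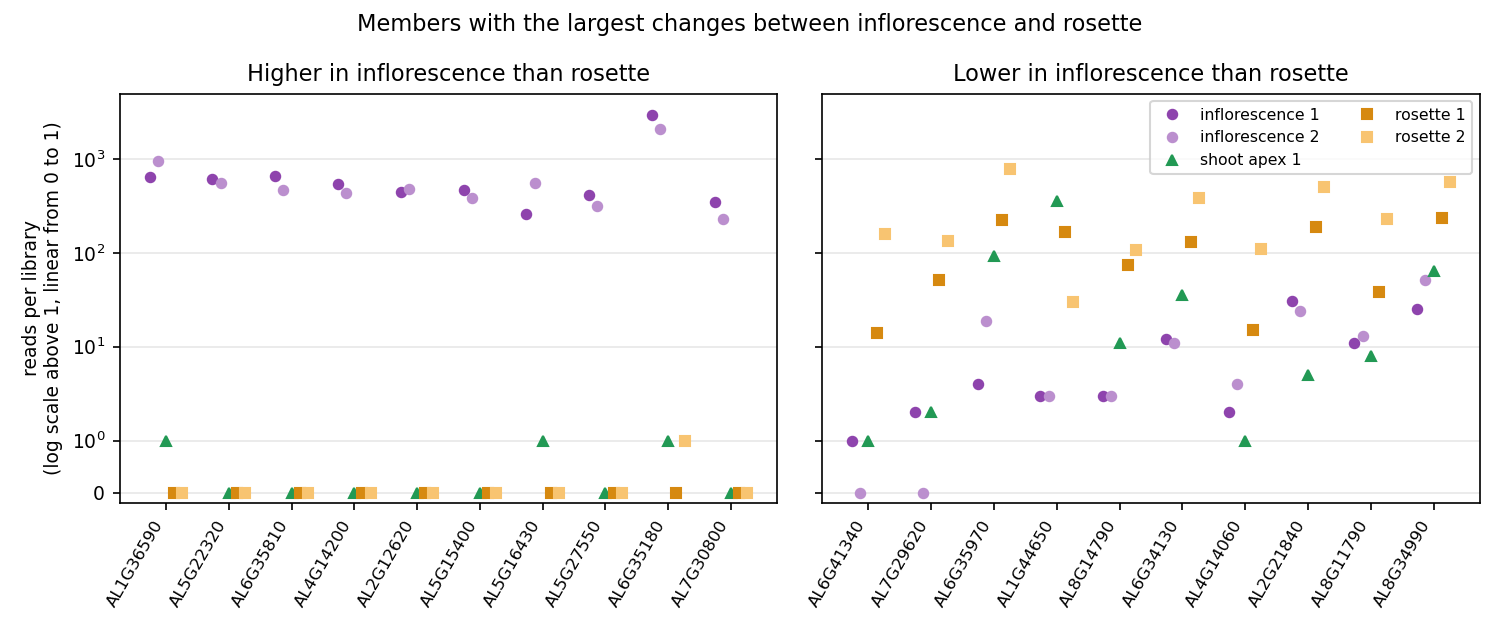
Reads per library (vertical axis, log scale above 1) of the 10 members with the largest increase (left) and the 10 with the largest decrease (right) in inflorescences relative to rosettes, with points for inflorescences (purple), the shoot apex (green) and rosettes (orange). In the left panel the rosettes stand at 0 or 1 read for every member, and in the right panel the inflorescences stand between 0 and 51 reads.

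Between the shoot apex and rosettes, 20 tested members (1.64%) were higher and 27 (2.22%) lower in the shoot apex, against 2.11% and 6.03% of all tested models. The median log2 fold change was 0.02 over tested members and 0 over all tested models. With library totals the median of all models moved by 0.67 and the split turned to 191 higher (88.4% of the calls) and 25 lower, against 42.6% higher in the main test. The single library of the shoot apex was assumed to vary like the others, and no member was called without inflorescence 1 or without inflorescence 2, although 123 and 120 had an unadjusted p under 0.05. DESeq2 called 51 higher and 57 lower.

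AL2G11200 (scaffold 2:581722-584374) had the largest increase, with 336 reads in the shoot apex against 19 and 5 in rosettes, and 79 and 119 in inflorescences. Its log2 fold change was 4.44 (SE 0.66, adjusted p = 0.0384 by edgeR's quasi-likelihood test). AL6G50310 had 764 reads in the shoot apex against 46 and 22 in rosettes, and the single-exon AL7G24630 had 104 in the shoot apex against 5 and 4 in rosettes. AL4G35110 (30 reads in the shoot apex, 3 and 1 in rosettes) and AL3G29730 (126 in the shoot apex, 8 and 11 in rosettes) followed. In these 5 members the shoot apex stood above both rosettes, as the rule for naming required. Inflorescences stood above both rosettes too in each of them, with 130 and 133 reads for AL4G35110 and 208 and 192 for AL3G29730. Scaled to the libraries, AL3G29730 stood at 6.43 CPM in inflorescences and 9.04 CPM in the shoot apex, a difference that was not called (log2 fold change -0.49, adjusted p = 0.385). Without rosette 1 the log2 fold change of AL2G11200 over rosettes was 5.52.

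Among the lowered members, AL3G42780 (scaffold 3:14820973-14823327), a single exon of 2,355 b with 2,151 b of coding region, had 22 reads in the shoot apex against 421 and 589 in rosettes. Its log2 fold change was -4.94 (SE 0.50, adjusted p = 0.0318 by edgeR's quasi-likelihood test). It was also lower in inflorescences, at 148 and 153 reads (log2 fold change -3.33, adjusted p = 0.00466). AL1G37810 had 24 reads in the shoot apex against 611 and 290 in rosettes, and AL8G18890 had 6 in the shoot apex against 116 and 104 in rosettes. AL1G29970, with 7,140 b of coding region, had 7 reads in the shoot apex and 79 and 139 in rosettes. In each of these both rosettes lay far above the shoot apex, where the rule for naming already required no overlap.

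Between inflorescences and the shoot apex, 44 tested members (3.61%) were higher and 50 (4.11%) lower in inflorescences, against 8.74% and 3.99% of all tested models. The median log2 fold change was 0.01 over tested members and 0.08 over all tested models, and with library totals the median of all models moved by -0.20, with 34 members higher (35.8% of the calls) and 61 lower, against 46.8% higher in the main test. No member was called without inflorescence 1 or without inflorescence 2, at an unadjusted p under 0.05 for 143 and 147, while 231 higher and 223 lower were called without rosette 1 and 224 and 221 without rosette 2. DESeq2 called 64 higher and 88 lower.

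AL5G39670 (scaffold 5:19142953-19143875) had 1,554 and 1,620 reads in inflorescences against 0 in the shoot apex, with 4 and 0 in rosettes. It was at least 237-fold above the floor of the shoot apex (adjusted p = 0.0140 by edgeR's quasi-likelihood test). AL5G39680, the listed ortholog of the pectin methylesterase gene PME61, followed 458 b after it and had reads in all libraries, with 1,005 and 1,242 in inflorescences against 68 in the shoot apex. AL7G44510 had 929 and 647 reads in inflorescences against 0 in the shoot apex, at least 117-fold. AL5G22320, AL6G35810 and AL4G14200 were the next of these, with the counts given above. The largest decrease was that of AL1G44650 (scaffold 1:14351750-14356642), with 3 and 3 reads in inflorescences against 355 in the shoot apex (log2 fold change -7.95, SE 1.10, adjusted p = 0.0252). AL4G13680 had 7 and 0 reads in inflorescences against 202 in the shoot apex, and AL7G36200 had 6 and 9 in inflorescences against 124 in the shoot apex. AL7G44660 had 5 and 4 reads in inflorescences and 64 in the shoot apex, and AL2G32500 had 43 and 52 in inflorescences and 326 in the shoot apex. None of these overlapped between the tissues, as the rule for naming required.

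The rosettes were also unequal in which members they contained. At least 20 reads in rosette 1 and none in rosette 2 were found for 6 members, and the reverse for none. AL6G35590 had 195 and 109 reads in inflorescences, 364 in the shoot apex, and 316 and 0 in rosettes. AL3G17150 had 0 reads in both inflorescences, 103 in the shoot apex, and 217 and 0 in rosettes. AL1G58360 (92 and 0), AL4G11400 (44 and 0) and AL3G42000 (30 and 0) had the next most reads in rosette 1. All 5 had reads in the shoot apex, and the summed shoot meristem markers stood at 4.84 CPM in rosette 1 against 0 CPM in rosette 2. Their part in the difference was not tested. Across all coding models, 122 had at least 20 reads in rosette 1 and none in rosette 2, against 1 for the reverse.

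Of the 10 members with the highest mean CPM, 8 lay together at the end of scaffold 3. Between AL3G52370 and AL3G52480 (scaffold 3:24309214-24439261, 130,048 b), 10 members had 1,406 to 8,150 and 5,847 to 28,398 reads in inflorescences 1 and 2, 4,452 to 30,741 in the shoot apex, and 892 to 6,015 and 2,363 to 12,626 in rosettes 1 and 2. These 10 were chosen after their values were seen. Together they held 9.88% and 27.3% of the members' reads in inflorescences, 42.3% in the shoot apex, and 14.5% and 26.1% in rosettes. Their counts kept nearly 1 ratio between libraries. Relative to rosette 1, they had 1.32 to 1.58 times the reads in inflorescence 1, 4.56 to 6.55 times in inflorescence 2, 4.99 to 5.46 times in the shoot apex and 2.05 to 2.65 times in rosette 2. Inflorescences and rosettes overlapped, and none of the 10 was called in a comparison, with adjusted p between 0.212 and 0.726 by edgeR's quasi-likelihood test.

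AL3G52430 (scaffold 3:24377329-24390601), with 17 exons and 8,412 b of coding region, had the most reads of these, with 8,150 and 28,398 in inflorescences, 30,741 in the shoot apex, and 6,015 and 12,626 in rosettes. Scaled to the libraries, this was 257 and 934 CPM in inflorescences, 2206 CPM in the shoot apex, and 520 and 1310 CPM in rosettes. AL3G52490, next in order after the stretch, had 0 reads in every library, and AL3G52330, before it, had 10 and 3 reads in inflorescences, 6 in the shoot apex, and 0 and 2 in rosettes. Among the 10 lay 2 TE-containing models with an ortholog, AL3G52380 (AT3G43160, MEE38), with 4,689 and 16,303 reads in inflorescences, 18,200 in the shoot apex, and 3,608 and 7,385 in rosettes, and AL3G52420 (AT1G33860), with 1,889 and 6,659, 7,454, and 1,606 and 2,953. Relative to rosette 1, AL3G52380 had 1.30 and 4.52 times the reads in inflorescences, 5.04 times in the shoot apex and 2.05 times in rosette 2, and AL3G52420 had 1.18 and 4.15 times in inflorescences, 4.64 times in the shoot apex and 1.84 times in rosette 2. The shoot apex ratio of AL3G52380 lay within the range of the 10 members, and the other ratios of both models lay below it. In the *A. thaliana* reference genome, blastn placed AT3G43160 and AT1G33860 at 86.9% to 88.7% identity on sequence 915 to 2,894 b ahead of the 18S ribosomal RNA genes AT2G01010 on chromosome 2 and AT3G41768 on chromosome 3. The *A. lyrata* members' own sequence was not compared with ribosomal DNA, and whether their reads come from ribosomal transcripts was not tested.

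**Figure D5:**
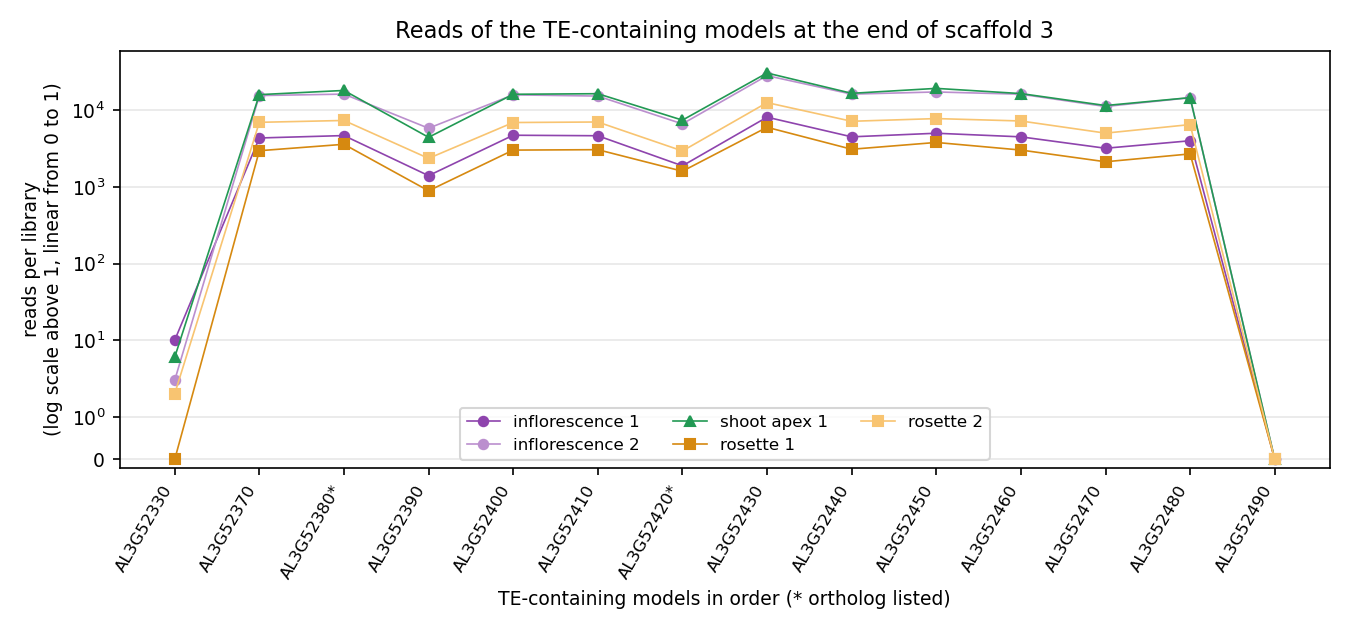
Reads per library (vertical axis, log scale above 1) of the TE-containing models in order along the end of scaffold 3 (horizontal axis), with 1 line per library and an asterisk for models with a listed ortholog. The 5 lines run in parallel from AL3G52370 to AL3G52480, and AL3G52490 has 0 reads in every library.

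Outside this stretch, AL8G10960 (scaffold 8:442000-442863), a single exon of 864 b with 240 b of coding region, had the highest level per kilobase of exon, at 837 CPM per kb over the mean of tissues. It had 13,358 and 14,462 reads in inflorescences, 11,321 in the shoot apex, and 10,477 and 8,796 in rosettes. It was lower in inflorescences than in rosettes (log2 fold change -1.02, SE 0.20, adjusted p = 0.0246 by edgeR's quasi-likelihood test). Scaled by library totals the log2 fold change was -0.43 and the call was lost (adjusted p = 0.138), whereas without inflorescence 1 (log2 fold change -0.93, adjusted p = 0.282) or inflorescence 2 (-1.11, adjusted p = 0.223) the call was lost at nearly the same fold change.

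AL9U11700 (scaffold 9:1625077-1635101) had 1,599 and 5,227 reads in inflorescences, 7,973 in the shoot apex, and 11,993 and 24,541 in rosettes. It was lower in inflorescences than in rosettes (log2 fold change -4.01, SE 0.85, adjusted p = 0.0296 by edgeR's quasi-likelihood test). The call was lost without inflorescence 1 (log2 fold change -3.38, adjusted p = 0.110) or inflorescence 2 (-5.16, adjusted p = 0.0684), and without rosette 2 it was kept at -3.23. AL9U11780, at scaffold 9:1654721-1657741, had the same order of libraries, with 688 and 2,560 reads, 3,187 reads, and 4,431 and 8,026 reads. Between them lay AL9U11720 and AL9U11730, whose listed orthologs ATCG01060 and ATCG01110 are genes of the chloroplast genome and which had at most 109 reads, and AL9U11740, without TE or ortholog, which had 934 and 4,181 reads in inflorescences, 5,812 in the shoot apex, and 6,892 and 14,808 in rosettes. Of 24 members within 5 models of a model with a chloroplast or mitochondrial gene as listed ortholog, these 2 had at least 1,000 reads in all. Orthologs of 3 nuclear photosynthesis genes summed to 1235 to 1448 CPM in inflorescences, 1592 CPM in the shoot apex and 20,779 to 22,635 CPM in rosettes, and whether reads of chloroplast transcripts are counted on AL9U11700 was not tested.

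Some neighbouring members had nearly the same counts. Within 5 models on either side, 10 of 855 members with at least 100 reads (1.17%) had a TE-containing or other coding neighbour within 10% in every library, compared with 0.299% of TE-containing models with an ortholog, 0.854% of models without TE or ortholog and 0.125% of models without TE but with an ortholog. Among the 10 were AL3G52370, AL3G52400, AL3G52410, AL3G52440 and AL3G52460, all from the stretch at the end of scaffold 3 described above. The members' share therefore rests in large part on that stretch. On scaffold 5, AL5G12040 had 9,100 and 9,567 reads in inflorescences, 3,420 in the shoot apex, and 2,826 and 3,973 in rosettes, and AL5G12050 had 8,919 and 9,400, 3,400, and 2,725 and 3,915. AL5G12030, without TE or ortholog, had 9,397 and 9,936, 3,586, and 2,920 and 4,051. Each of these 3 models had 7 exons and 1,404 b of coding region.

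On scaffold 3, AL3G40930 had 657 and 716 reads in inflorescences, 40 in the shoot apex, and 46 and 19 in rosettes. Its TE-containing neighbour with an ortholog, AL3G40920, had 622 and 689, 40, and 45 and 20, and both had 7 exons and 1,200 b of coding region. AL7G46340 and AL7G46360 had 1,831 and 2,280 against 2,000 and 2,313 reads in inflorescences, with 3,768 and 3,675 b of coding region. Reads that align equally well to such models cannot be assigned to 1 of them, and whether they were counted at each was not tested, so that the separate values of these models are uncertain. The same limit holds for any other member with near copies in the genome.

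Genes that act in TE silencing, or counter it by removing DNA methylation as ROS1 and DME do, were read through their orthologs. Of 16 such genes, all tested, 3 were higher and 0 lower in inflorescences than in rosettes, namely DDM1, a chromatin remodeler needed for DNA methylation of TEs (log2 fold change 1.30, adjusted p = 0.0430 by edgeR's quasi-likelihood test), KYP, a histone methyltransferase (0.98, adjusted p = 0.0107), and MORC6, a silencing ATPase (1.11, adjusted p = 0.0166). DDM1 had 923 and 772 reads in inflorescences, 667 in the shoot apex, and 164 and 76 in rosettes. Among all tested models 17.6% were higher and 16.7% lower in this comparison. In the shoot apex 2 were higher than in rosettes and 0 lower, DDM1 and KYP, against 2.11% and 6.03% of all tested models. Between inflorescences and the shoot apex 0 were higher and 1 lower in inflorescences, RDR6, an RNA-dependent RNA polymerase (log2 fold change -0.88, adjusted p = 0.0446), against 8.74% and 3.99% of all tested models. No relation between these genes and the members was tested.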

How the data were processed

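Members were read from the deposited version-2 annotation (other: positions and attributes) and joined by name to the raw counts per gene model that the authors deposited. The authors also deposited values headed RPKM, which hold RPM without a term for length, since within a library they differ from the counts by 1 factor. They served for library totals alone. Reads were single-end without strand. The authors aligned them with Bowtie and TopHat, predicted models with Cufflinks and Augustus, and listed orthologs by reciprocal best protein hits, so that a model without a coding region cannot have one. The submitters' processing notes name FastQC, TopHat and TAIR10 with no version. The counting tool is not given in the sources used here. In both inflorescence libraries the counted total exceeds the uniquely aligned reads that the study lists, so the counts there include other reads. Counted reads made up 79.7% to 81.5% of the library totals behind the RPM values. These totals exceed the aligned reads that the study lists in all 5 libraries. Reads aligned to more than 1 place may thus be counted in every library, also on members, which was not tested. The *A. thaliana* libraries were not used.

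Tissues were compared in 1 fit of 5 libraries with edgeR 4.0.16 under R 4.3.3: filterByExpr, TMM, 1 mean per tissue (2 residual degrees of freedom), glmQLFTest, and Benjamini-Hochberg adjustment over the 25,465 of 32,793 models tested. Standard errors are the absolute log2 fold change over the square root of F. The code was tested on simulated data. CPM carry the TMM factor (1.12 and 1.17 for inflorescences, 1.32 for the shoot apex, 0.801 and 0.722 for rosettes). Folds against a tissue at 0 use a floor of 3 counts per library. Exact (Clopper-Pearson) 95% intervals of shares of models treat models as independent draws, which neighbours need not be. They hold no spread between libraries and are no test between classes. Counting intervals of read ratios and floors describe counting error alone. Nothing in the labels ties replicates to separate plants, so p-values measure the spread between libraries. Thinning gives expected numbers from the hypergeometric distribution. *A. thaliana* matches used blastn 2.17.0.

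Members and lists were chosen with earlier results of these data known. The text names the 10 (inflorescences against rosettes) or 5 members with the largest fold change in each direction, among calls whose mean log2 CPM exceeds 1 and whose libraries do not overlap. Further members were picked as the 10 highest by CPM, the 5 highest per kilobase and the 3 with most reads in 1 tissue alone. The 3 longest and the 3 with most exons were picked too, and not all of these picks are named. The 3 longest runs, the PCR loci, and the 5 with most reads in 1 rosette alone are named as well. Neighbours and models with near-equal counts were added after their values were seen. Alternatives were other scaling, no filter, DESeq2 1.42.0, a replicate block, a stricter threshold, members without overlaps, each replicate left out, and other limits for reads, runs and windows.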

Additional observations from a re-analysis of the deposited data

How the results depend on the processing

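Results are given for members. With DESeq2's size factors, without the filter on low counts, and for members that overlap no other model, each count of calls stayed within 1.5 times its value. Among calls higher and lower, DESeq2's test gave 51 and 57 for the shoot apex against rosettes and 88 lower for inflorescences against the shoot apex, and library totals gave 372 and 191 higher for inflorescences and the shoot apex against rosettes. An adjusted p under 0.01 with a log2 fold change above 2 left 36 and 37, 0 and 0, and 4 and 1 in the 3 comparisons. Leaving out 1 library gave 7 to 275 higher and 4 to 229 lower for inflorescences against rosettes, 0 to 160 and 0 to 148 for the shoot apex against rosettes, and 0 to 231 and 0 to 223 for inflorescences against the shoot apex. The 0 counts arose without inflorescence 1 or inflorescence 2, which leaves replicates for rosettes alone, and there 120 to 147 members had an unadjusted p under 0.05.

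Replicate numbers share nothing but the number in the labels, and deviations of same-numbered libraries correlated at r = 0.068 over 25,465 models. With the replicate block, 86 higher were called for inflorescences against rosettes, 0 and 0 for the shoot apex against rosettes (162 at an unadjusted p under 0.05), and 12 and 23 for inflorescences against the shoot apex. Of 43 named fold changes, 29 kept their call with the block, 2 and 3 without inflorescence 1 and 2, 40 without the filter, 42 with library totals, and all 43 with DESeq2, its size factors, or without either rosette. None reversed.

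Members with at least 1 read numbered 66.1% and 69.5% in inflorescences, 51.0% in the shoot apex, and 47.9% and 44.6% in rosettes, and with at least 10 reads 40.8%, 45.1%, 30.4%, 28.4% and 26.4% in that order. Thinning gave 38.4% and 43.5% in inflorescences and 31.9% in rosette 1. The share of counted reads was 1.55%, 2.16%, 3.598%, 1.44% and 1.98% on members without overlaps, 1.41%, 1.85%, 2.70%, 1.17% and 1.54% without the 5 members with most reads, and, chosen after seeing the data, 1.44%, 1.60%, 2.10%, 1.26% and 1.48% without the 10 at the end of scaffold 3. Runs held 1,144 members at a minimum of 2, 155 at 5, and 907 with 1 other model allowed between. Member-rich windows held 25.8% at 250 kb and 14.5% at 1000 kb. In the first transcript the median was 4 exons, nearer to models without TE or ortholog (3) than to TE-containing models with an ortholog (6). The depth of the shoot apex and the rosettes limits what can be seen of members with few reads there.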
